A study of Mus musculus with 6 samples.

Results

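The genes described here carry out V(D)J recombination, the cutting and rejoining of gene segments that builds antigen receptors in lymphocytes. They were chosen by symbol from the authors' deposited table: 3 lymphoid-specific genes (Rag1, Rag2 and Dntt) and 7 genes of general DNA end joining (Xrcc6, Xrcc5, Prkdc, Dclre1c, Xrcc4, Lig4 and Nhej1). All 10 were among the 22609 rows and all 10 had a p-value there, although Dntt lay close to the detection floor. The cells were early T cell progenitors (ETPs), the most immature cells of the thymus, sorted from fetal thymus of C57BL/6 mice as lineage-negative, CD44+ and c-Kit+ without CD25, CD4 or CD8. Wild-type control cells gave 3 libraries, and E2Afl/flHEBfl/flIL7RCre cells (called dKO), sorted in addition for YFP, gave the other 3. In the dKO mice floxed alleles of E2A (gene Tcf3) and HEB (gene Tcf12) are deleted by Cre expressed from the Il7r locus, so deletion depends on cells having used that locus. The YFP gate was applied to dKO cells alone, so gate and genotype cannot be told apart. The age of the fetuses is not given in the sources used here, and whether each library came from its own animal is not stated either, so p-values cover library-to-library spread alone, possibly of technical origin. Transcripts of the deleted genes were still detected in dKO, with means of 363.8 for Tcf3 (24.6-fold below control) and 562.0 for Tcf12 (6.84-fold below) by the authors' deposited table.

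In V(D)J recombination the RAG1-RAG2 recombinase nicks DNA at recombination signal sequences and leaves hairpin-sealed coding ends. These are handed to the end-joining machinery that every cell uses for broken DNA: the Ku70-Ku80 ring (Xrcc6 and Xrcc5) binds the ends, the kinase DNA-PKcs (Prkdc) activates the nuclease Artemis (Dclre1c) to open the hairpins, and DNA ligase IV (Lig4) with XRCC4 and XLF (Nhej1) seals them. Terminal deoxynucleotidyl transferase (TdT, gene Dntt) adds untemplated nucleotides to the junctions and is known to be scarce in fetal lymphocytes. E2A and HEB are basic helix-loop-helix factors that bind E-boxes, DNA of the form CANNTG, and E proteins are known activators of the Rag genes.

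The promoters of Rag1, Rag2 and Xrcc6, 3 genes that fell, and of Dclre1c, which did not pass, are shown because E-boxes are the sites at which the deleted factors bind. Lig4, the remaining gene that fell, has 2 start sites in this reference, and its matches are given in words. Each runs 5′ to 3′ from 250 bases before to 50 bases after the start site in RefSeq (GRCm38.p6), and capitals mark every CANNTG. The Rag1 window is chr2:101649483-101649782 (minus strand), that of Rag2 is chr2:101624462-101624761 (plus strand), that of Xrcc6 is chr15:82016119-82016418 (plus strand) and that of Dclre1c is chr2:3423881-3424180 (plus strand).
Rag1: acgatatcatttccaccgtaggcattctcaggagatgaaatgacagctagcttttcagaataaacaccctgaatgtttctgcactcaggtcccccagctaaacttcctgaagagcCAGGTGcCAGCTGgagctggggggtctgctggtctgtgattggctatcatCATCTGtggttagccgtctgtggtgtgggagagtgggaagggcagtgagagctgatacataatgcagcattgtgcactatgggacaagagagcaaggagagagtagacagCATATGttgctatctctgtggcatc
Rag2: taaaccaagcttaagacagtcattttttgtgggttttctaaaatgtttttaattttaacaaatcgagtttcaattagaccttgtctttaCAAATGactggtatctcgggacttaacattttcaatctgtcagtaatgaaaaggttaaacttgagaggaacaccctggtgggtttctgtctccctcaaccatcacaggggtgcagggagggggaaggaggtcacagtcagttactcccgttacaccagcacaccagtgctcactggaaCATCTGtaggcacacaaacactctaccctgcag
Xrcc6: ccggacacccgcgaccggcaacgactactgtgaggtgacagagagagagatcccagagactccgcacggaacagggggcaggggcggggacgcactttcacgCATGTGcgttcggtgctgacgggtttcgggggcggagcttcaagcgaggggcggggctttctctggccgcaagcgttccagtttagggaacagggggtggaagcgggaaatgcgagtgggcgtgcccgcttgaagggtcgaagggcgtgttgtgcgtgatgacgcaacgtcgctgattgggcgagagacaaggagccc
Dclre1c: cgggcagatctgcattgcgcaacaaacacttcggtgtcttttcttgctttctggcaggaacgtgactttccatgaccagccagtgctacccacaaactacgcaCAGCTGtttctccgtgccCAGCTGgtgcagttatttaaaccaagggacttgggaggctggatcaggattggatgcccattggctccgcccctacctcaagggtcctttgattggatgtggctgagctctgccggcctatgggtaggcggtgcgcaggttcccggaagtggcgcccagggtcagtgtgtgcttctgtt

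The Rag1 window held 4 CANNTG matches, which began at -135 (CAGGTG), -128 (CAGCTG), -85 (CATCTG) and 25 (CATATG), counted from the start site. Of 32851 windows of the same length, 6.49% held 4 or more, and 72.3% held at least 1. The Rag2 window held 2 matches, CAAATG at -161 and CATCTG at 17, and 39.6% of all windows held 2 or more. Xrcc6 had a single match, CATGTG. The Dclre1c window held CAGCTG in 2 places, at -147 and -129. Each of the 2 Lig4 windows held CAGCTG as well, at -71 in one and -178 in the other, beside 1 other match. CAGCTG thus stood both in genes that fell (Rag1 and Lig4) and in one that did not pass (Dclre1c). Xrcc5 had 2 matches, Dntt 3, Nhej1 1 and Xrcc4 0, with no CAGCTG among them. CAGCTG stood in 16.3% of all windows and CAGGTG or CACCTG in 20.2%, both strands counted (each of these is a kind of CANNTG, so the searches overlap). The matches are a description of the sequence, and binding was not measured. Of the 10 genes, 9 had a window in this reference table and Prkdc had none.

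Rag1 and Rag2 transcripts were 61.0-fold and 15.1-fold lower in dKO cells, whereas 5 of the 7 general end-joining genes missed the threshold. In bulk libraries fewer RAG-expressing cells and less RAG RNA per cell cannot be told apart. At the authors' adjusted p under 0.05, 4 of the 10 genes were lower in dKO (Rag1, Rag2, Xrcc6 and Lig4), 0 were higher and 6 did not pass. The authors' DESeq test left 0 higher also at an unadjusted p under 0.05. Over all 16241 tested genes 29.0% were called, 13.8% lower and 15.1% higher. Among tested genes with a mean of at least 100, to which 9 of the 10 belong, 40.4% were called and 19.1% were lower, and the 2 of 7 general end-joining genes that fell are read against that share. The median log2 change was -3.92 over the 3 lymphoid-specific genes and 0.08 over the 7 general ones (-0.0045 when each group was divided by its sum), beside -0.05 over all tested genes. The 2 scaling alternatives that were run subtract the same 0.08 or 0.006 from every log2 change. The direction of the 4 genes that fell could therefore not turn under them.

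**Figure D1:**
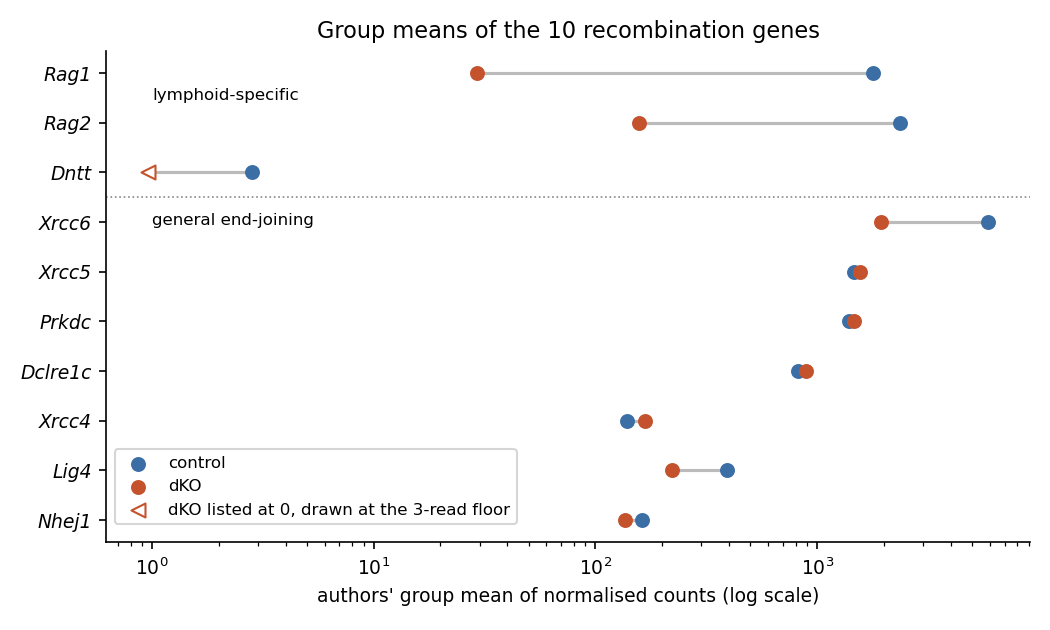
Authors' mean of normalised counts in control (blue) and dKO (orange) for each gene, on a log axis. Rag1 and Rag2 show the widest gaps, Xrcc6 and Lig4 smaller ones, and Dntt in dKO, listed at 0, is drawn as an open triangle at the floor of 3 reads over the group.

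Errors for single genes are not given by the authors' deposited table. An approximate 95% interval was therefore taken from each authors' p-value, read as a normal test on the log2 scale. For genes of low mean the whole reads behind a group mean could also be recovered, which gives the value of each library. These libraries are named by their size factor, the number by which a library's reads are divided, because nothing ties them to replicate numbers. Depth, from the size factors and the group sums, came to roughly 18.2 to 22.6 M reads in the control libraries and 24.3 to 27.0 M in those of dKO.

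Rag1 encodes the catalytic subunit that binds and cuts the recombination signals. Its authors' mean was 1784 in control and 29.2 in dKO by the authors' deposited table, 61.0-fold lower, at an adjusted p of 1.63e-48. The log2 change was -5.93, with an approximate interval of -6.71 to -5.15. Only 10 of 10302 genes with a mean of at least 100 fell further on the log2 scale. Recovered reads of Rag1 in dKO were 57, 26 and 10 in the libraries of size factor 1.04, 1.08 and 1.16, or 54.9, 24.2 and 8.65 normalised counts (29.2 ± 23.5, SD, n = 3). These libraries differed among themselves by 6.35-fold, yet the highest was 32.5-fold below the control mean and the lowest 206-fold. The fold therefore rests on 93 reads: it was 109-fold without the library of size factor 1.04, 56.1-fold without that of 1.08 and 45.1-fold without that of 1.16.

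Rag2 encodes the partner subunit, which reads a histone mark of active promoters and restricts cutting to part of the cell cycle. Its authors' mean went from 2363 to 156.6 by the authors' deposited table, 15.1-fold lower, at an adjusted p of 1.37e-123, with a log2 change of -3.92 and an approximate interval of -4.24 to -3.59. The dKO libraries held 179, 105 and 231 reads in the order above, 172.4, 97.7 and 199.8 normalised counts (156.6 ± 52.9, SD, n = 3). All lay at least 11.8-fold below the control mean, and leaving out a dKO library gave 12.7-fold to 17.5-fold. Control values per library could not be recovered for either Rag gene, since 39 combinations of whole reads fitted the control mean of Rag1 and 75 that of Rag2, so overlap between libraries of the groups was not examined.

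By their means the RAG genes did not fall equally. The ratio of the Rag1 to the Rag2 mean went from 0.755 in control to 0.187 in dKO. The approximate intervals of their log2 changes do not meet, but a difference between genes of the same libraries was not tested. That of Rag1 comes from its p-value alone, and its dKO libraries differed among themselves by 6.35-fold. Rag1 was below Rag2 in every dKO library, as in the control means, but the share differed. Rag1 counts were 31.8% of Rag2 counts in the library of size factor 1.04, 24.8% in that of 1.08 and 4.33% in that of 1.16. The library of size factor 1.16 had the least Rag1 and the most Rag2. Between 3 libraries this is a description without a test. Per kilobase of transcript the control level of Rag2 was 690 and that of Rag1 270 normalised counts.

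**Figure D2:**
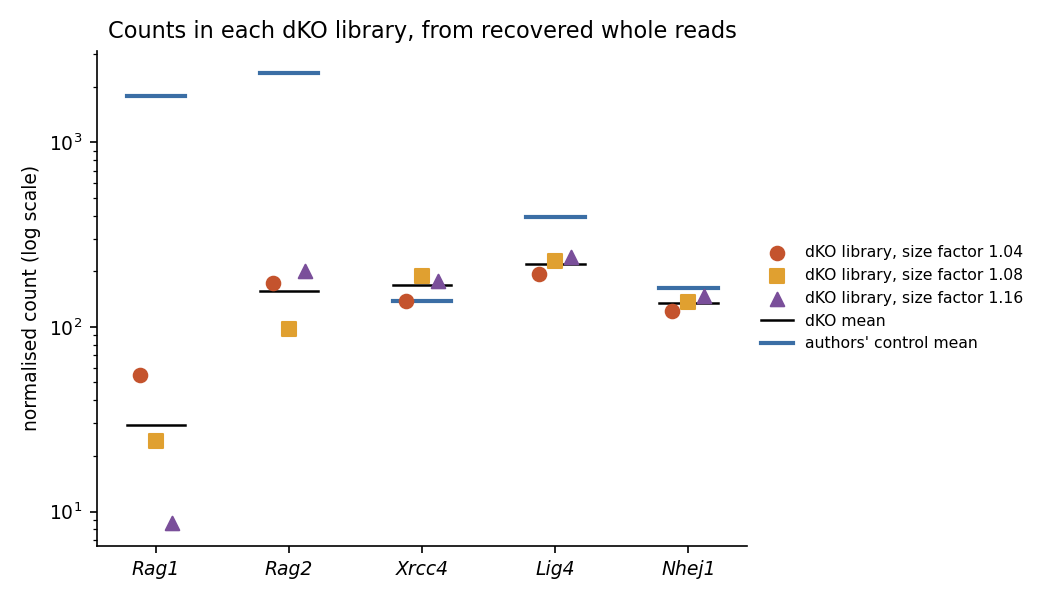
Normalised counts (log axis) of 5 genes in each dKO library, from recovered whole reads, with the dKO mean (black line) and the authors' control mean (blue line). Rag1 spreads from 8.65 to 54.9 and lies far below its control mean, whereas the libraries of Xrcc4 and Nhej1 lie near theirs.

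Dntt was scarcely detected in either group. The control mean of 2.83 came from 7 reads, all in the control library of size factor 0.823, and the dKO libraries held 0 reads, which allows a group mean of up to 0.963 (3 reads over the group, counting error only). The difference did not pass (authors' adjusted p = 0.687 by the authors' deposited table), and without that control library both groups were at 0. A loss of Dntt was thus not detectable at this depth. The related polymerase gene Polm, whose product pol mu fills gaps at coding ends, rose 3.39-fold, from 156.1 to 528.6 (authors' adjusted p = 6.64e-12 by the authors' deposited table). Its control libraries held 121, 170 and 177 normalised counts. For its dKO libraries 2 combinations of reads fitted, 494, 607 and 484 or else 494, 954 and 138, and under the second the groups overlapped. Poll, the remaining end-joining relative, had means of 942 and 826 by the authors' deposited table, short of the threshold.

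Ku70 and Ku80 work as an obligate pair, but their transcripts differed. Xrcc6 (Ku70) went from 5882 in control to 1950 in dKO by the authors' deposited table, 3.02-fold lower, at an adjusted p of 1.81e-44, with a log2 change of -1.59 and an approximate interval of -1.81 to -1.38. Xrcc5 (Ku80) had means of 1467 and 1565 by the authors' deposited table and missed the threshold (authors' adjusted p = 0.836). Its approximate interval of -0.27 to 0.45 on the log2 scale does not meet that of Xrcc6, but the difference between these genes was not tested. The ratio of the Xrcc6 to the Xrcc5 mean went from 4.01 to 1.25. Per kilobase of transcript the control level was 1785 for Xrcc6 and 574 for Xrcc5, and the dKO levels were 592 and 613.

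Of the processing and ligation genes, Lig4 alone passed the test. Prkdc, the kinase subunit DNA-PKcs, had means of 1391 and 1468 and Dclre1c (Artemis) 819 and 887 by the authors' deposited table. Neither passed, and their approximate intervals reach from 0.893 to 1.25 of the control level for Prkdc and from 0.898 to 1.31 for Dclre1c. A difference within these limits could be missed.

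Lig4, the ligase, went from 392.4 to 220.4 by the authors' deposited table, 1.78-fold lower, at an adjusted p of 0.00404. The log2 change was -0.83, with an approximate interval of -1.32 to -0.35. Its dKO libraries were close together, at 193.6, 227.9 and 239.6 normalised counts (220.4 ± 23.9, SD, n = 3), all below the control mean, and the fold ran from 1.68 to 1.86 when each was left out. With a minimum change of 2-fold Lig4 is not counted. The reads of its control libraries had 5 solutions and were not assigned.

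The partners of the ligase did not pass. Xrcc4 had means of 138.7 and 168.0 by the authors' deposited table (authors' adjusted p = 0.652), and its dKO libraries held 137.8, 188.8 and 177.3 normalised counts. For its control libraries 2 combinations of reads fitted, an even set of 147.0, 109.2 and 160.1 normalised counts and an uneven set of 4.86, 6.30 and 405.1. Nhej1 (XLF) had means of 162.3 and 135.4 by the authors' deposited table (authors' adjusted p = 0.709), with 122.3, 136.7 and 147.1 in the dKO libraries. Its control libraries fitted 168.8, 177.5 and 140.6 or else 26.7, 74.6 and 385.6. Under each of the 4 sets the control and dKO libraries overlapped. These genes were the least precise of the general set, with approximate intervals from 0.773 to 1.89 of control for Xrcc4 and from 0.515 to 1.35 for Nhej1.

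**Figure D3:**
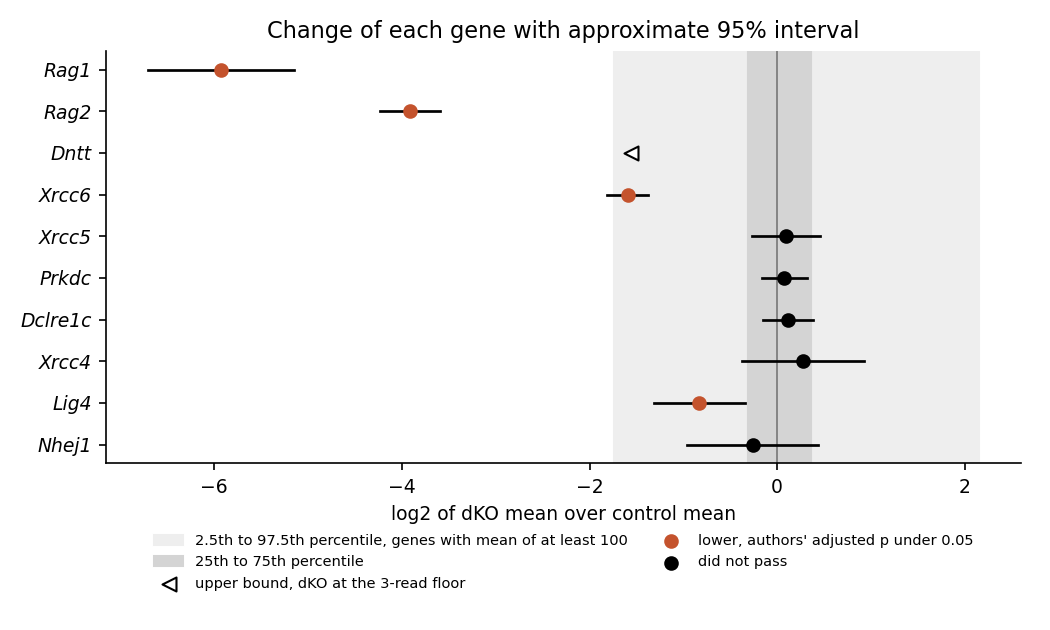
Log2 of the dKO over the control mean with the approximate 95% interval; orange points passed the authors' test as lower, and grey bands give the spread of genes with a mean of at least 100. Rag1 (-5.93) and Rag2 (-3.92) lie outside the wide band, which runs from -1.74 to 2.15; 4 of the 5 general genes that did not pass have intervals that reach past the narrow band, and that of Prkdc lies within it.

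Around the Rag genes, on chromosome 2, neighbours differed from one another. The Iftap gene, listed as B230118H07Rik, overlaps Rag2 on the opposite strand and had means of 142.2 and 190.9 by the authors' deposited table (authors' adjusted p = 0.422). Its control libraries held 116.6, 147.0 and 163.0 and its dKO libraries 210.0, 214.8 and 147.9 normalised counts, so the groups overlapped. In the GENCODE vM21 annotation it shares 208 exon bases with Rag2 and 80 with Rag1. Use of strand in counting is not stated, so shared reads cannot be told apart. Traf6, a signalling adaptor on the far side of Rag1, had means of 1590 and 1908 by the authors' deposited table and missed the threshold (authors' adjusted p = 0.116). The next gene, Prr5l, which encodes a binding partner of the mTORC2 kinase complex, rose 8.59-fold from 193.2 to 1660 (authors' adjusted p = 4.85e-26 by the authors' deposited table). On the other side, beyond Iftap in gene order, Lrrc4c, which encodes a neuronal adhesion protein, fell from 121.4 to a single read in dKO (authors' adjusted p = 4.39e-19 by the authors' deposited table). Prr5l and Lrrc4c lie outside the rule for named genes and were chosen after their values were seen. Blnk, beside Dntt on chromosome 19, had 11 control reads in a single library and 0 in dKO, and Opalin, on the other side, was listed at 0 in both groups.

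Xrcc6 fell together with the gene that starts beside it. Desi1, listed as Pppde2, runs the other way from a start 149 bases from that of Xrcc6 in RefSeq (GRCm38.p6), and its mean went from 4191 to 1454 by the authors' deposited table, 2.88-fold lower, at an adjusted p of 2.47e-36. The log2 changes were -1.53 for Desi1 and -1.59 for Xrcc6. The annotated exons of the 2 genes share 344 bases on opposite strands, so part of their reads may be counted for either. Pmm1 (1.61-fold) and Snu13, listed as Nhp2l1 (1.40-fold), within 2 coding genes of Xrcc6, were lower too by the authors' deposited table. The other members with such a partner did not share its call. Abhd13, which starts 37 bases from Lig4, had means of 773 and 932 by the authors' deposited table and missed the threshold (authors' adjusted p = 0.661). Tmem167, 59 bases from Xrcc4 and sharing 112 exon bases with it, rose 1.31-fold (authors' adjusted p = 0.0046 by the authors' deposited table). These genes were chosen after the values were seen.

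**Figure D4:**
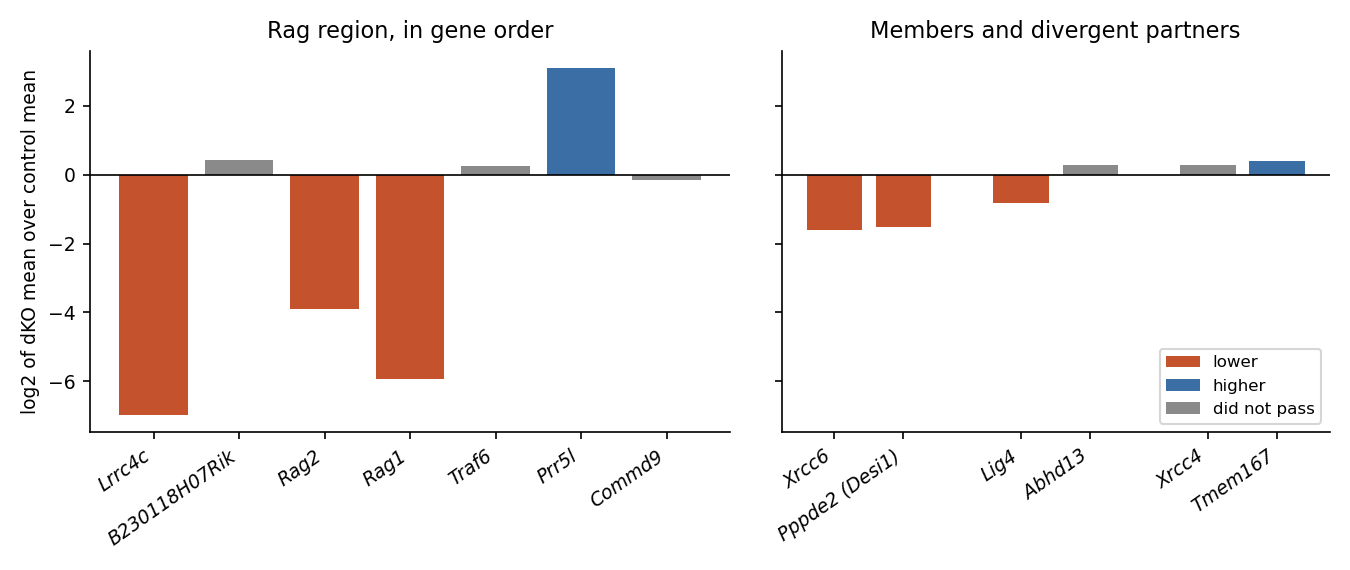
Log2 of the dKO over the control mean for genes of the Rag region in chromosomal order (left, not to scale) and for 3 members beside the gene that starts next to them in the opposite direction (right). Iftap and Traf6, directly beside the Rag genes, did not pass, Lrrc4c (drawn with dKO at the floor of 3 reads) fell, Prr5l rose, and the bars of the Xrcc6 pair are of like length.

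The RAG proteins depend on partners, and these moved in both directions. Of 10 partners and regulators of RAG protein, 4 rose and 2 fell while 4 missed the threshold, and the median log2 change was 0.07. The called share was 60.0%, beside 29.0% over all tested genes and 40.4% over genes whose mean reached 100. The DNA-bending cofactors diverged: Hmgb2 rose 1.51-fold and Hmgb1 fell 1.33-fold, from 52011 to 39213, by the authors' deposited table. Cyclin A2 with Cdk2 marks RAG2 for destruction through Skp2 as cells enter S phase. Ccna2 rose 1.54-fold, Skp2 fell 1.37-fold and Cdk2 (means of 3219 and 3146) did not pass by the authors' deposited table. The importin gene Kpna2 rose 1.68-fold and the chromatin reader gene Brwd1 from 1326 to 1994 by the authors' deposited table, and Kpna1, with means of 2772 and 3137, did not pass.

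Other DNA repair genes moved in both directions. Over 4 repair lists together, 7 of 54 tested genes fell, 5 rose and 42 did not pass, a called share of 22.2% beside 29.0% of all tested genes and 40.4% of the more abundant ones (mean of at least 100). The median log2 change over the 54 was -0.05, beside -0.05 over all tested genes and 0.006 over the more abundant ones. Besides Polm, the end-processing list of 12 had Ppp2ca, a phosphatase catalytic subunit, up 1.29-fold by the authors' deposited table, while Wrn and Tdp1 missed the threshold. Of 16 genes of the break response, H2afx (the histone variant phosphorylated at breaks, 1.66-fold) and Mad2l2 (1.43-fold) rose and Mdc1 fell 1.37-fold by the authors' deposited table, whereas Trp53 and Rif1 did not pass. Among 17 homologous recombination genes Brca2 (1.67-fold), Dna2 (1.40-fold) and Exo1 (1.32-fold) fell by the authors' deposited table, and 0 rose by the authors' DESeq test. At an unadjusted p under 0.05, 1 was higher there, and Rad54l missed the adjusted threshold. Of 9 genes of alternative end joining and single-strand repair, Parp1 (1.35-fold), Apex1 (1.71-fold) and Lig3 (1.27-fold) fell by the authors' deposited table, and 0 rose by the authors' DESeq test (Polb alone at an unadjusted p under 0.05), with Lig1 and Fen1 the most abundant that missed it. Each of these folds was smaller than that of Xrcc6, apart from the rise of Polm, and this is a comparison of sizes without a test.

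**Figure D5:**
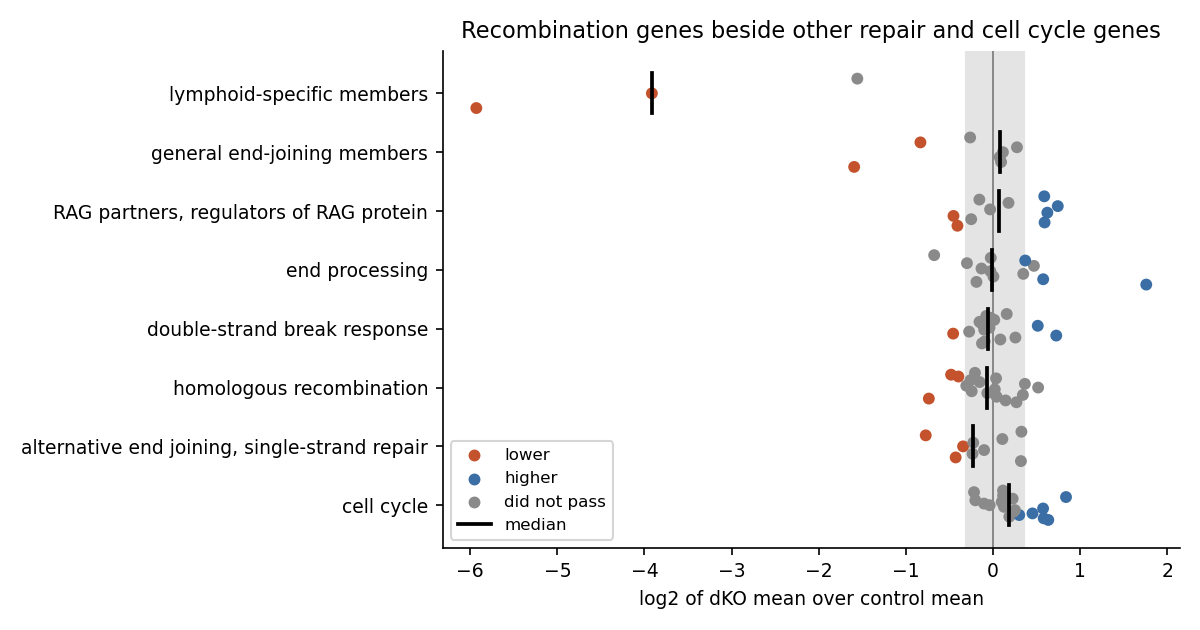
Log2 of the dKO over the control mean for single genes (points, with Dntt in grey in the top row at an upper bound), with list medians (black lines) and the 25th to 75th percentile of genes with a mean of at least 100 (grey band). Rag1 and Rag2 lie to the left of every other gene plotted, which are the general end-joining genes, RAG partners, 4 repair lists and cell cycle genes; regulators and cell type markers, some of which fell further, are not plotted.

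RAG2 protein is tied to the cell cycle, so cell cycle genes are given beside these values. Of 19, 6 rose and 13 did not pass, with a median log2 change of 0.19. The called share was 31.6%, beside 29.0% over all tested genes and 40.4% over the more abundant ones. Rrm2 rose 1.79-fold, Mki67 1.55-fold and Top2a from 17048 to 25536 by the authors' deposited table, while Mcm6 and Mcm3 did not pass. By the authors' DESeq test 0 of the 19 were lower, with Mcm6 and Cdt1 lower at an unadjusted p under 0.05. The part of proliferation in the members' values was not tested.

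Factors listed as bound at the Rag or Dntt genes, or known for their control, moved in both directions. Not every one binds DNA itself, since Id1, Id2, Id3, Lmo2 and Cbfb are in the list and its counts. Of 28 tested, 14 fell, 9 rose and 5 did not pass. The called share was 82.1%, beside 29.0% over all tested genes and 40.4% over the more abundant ones. The share includes the 2 deleted genes, and the list was chosen with earlier results of these data known. The smallest adjusted p-values among those that fell belonged to the deleted Tcf3 and Tcf12 and to Myb, which fell 4.93-fold by the authors' deposited table. Ikzf3 (4.83-fold), Gata3 (3.26-fold) and Ets1 (2.29-fold) rose by the authors' deposited table, while Elf1 and Bcl11b, the most abundant of the rest, missed the threshold. Foxo1, an activator of Rag transcription in B cell precursors that was picked here after its values were seen, rose 3.39-fold by the authors' deposited table.

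Cells of other kinds can bring RAG transcripts, so their markers were read in the same table. Of 9 markers of later thymocytes, 5 fell (Arpp21, Ptcra, Cd3e, Cd3g and Cd4), 1 rose and 3 did not pass, and their summed means were 23190 in control and 13272 in dKO. Ptcra, the pre-T cell receptor chain, had 5 reads in all over the dKO libraries, and Il2ra had means of 8417 and 8536 by the authors' deposited table although cells were sorted without CD25. Cd8b1 had 3 control reads and a single dKO read. Of 9 tested B lineage markers, 3 fell, Bst1 and Igll1 among them, and 6 did not pass, with summed means of 1454 and 1098. Pax5 was listed at 0 in both groups, and Ebf1, Igll1 and Blnk were at 0 in dKO. All 7 innate lymphoid markers rose, among them Icos, Cxcr6 and Il18r1, with summed means of 17895 and 82945. These markers, like the other lists, were chosen with earlier results of these data known. Their count is therefore a description and not a test. Of 4 myeloid markers, 3 fell (Mpo, Csf1r and Lyz2), with summed means of 8243 and 1684, and 1 of 3 tested erythroid markers fell (Beta-s, a beta-globin). Of 4 stromal markers, 0 passed the authors' DESeq test (Epcam alone at an unadjusted p under 0.05). Of 8 ETP markers, 4 fell (Notch1, Cd34, Flt3 and Tcf7), 3 rose (Ptprc, Kit and Il7r) and Cd44 did not pass, with Kit at 14094 and 19067 and Flt3 at 1080 and 326.8 by the authors' deposited table. The part of other cell types in the RAG values was not tested.

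The genes nearest to Rag2 in the plane of log2 control and log2 dKO means were Arpp21, Pigr and Cldn2, at distances of 0.338, 0.645 and 0.689 over the 2 group means. Arpp21, a marker of later thymocytes, went from 2928 to 142.6 by the authors' deposited table. Nearest to Rag1 were Ccdc135, Uaca and Fbp1, at distances of 0.377, 0.437 and 0.623, and Uaca went from 1634 to 39.1 by the authors' deposited table. By their deposited means 5 other genes had the same pair of values as Dntt. With dKO at the floor Adamtsl5 coincided with it as well, so no nearest genes are named for Dntt.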

How the data were processed

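RNA was measured in 6 libraries, 3 control and 3 dKO, grouped by their titles. Per the labels' protocols, RNA of sorted cells was amplified with a low-input SMARTer kit and sequenced on an Illumina HiSeq, so reads are not independent molecules and floors cover counting error only. The submitters' processing notes name bcl2fastq 1.8.4, TopHat2 2.0.14, DESeq version 2 and mm9, with no roles; no counter, annotation or strand setting is given in the sources used here. The deposited table holds 1 mean normalised count per group (a signal, per the file headers), a fold ratio and a p-value, raw and adjusted, per gene, and no value per library. The deposited log2 column was not used; log2 changes were computed from the means. Of 22609 rows, 16241 had a p-value.

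A gene was called at the authors' adjusted p under 0.05, over all tested genes, and no new test was made. Approximate 95% intervals are the log2 change plus or minus the normal quantile times the error implied by the authors' p-value. Each group mean is a sum of whole reads weighted by library. The 3 weights per group were fitted to the low means, and every combination of whole reads that gave a mean within its last deposited digit was listed. All 3582 control and 3719 dKO distinct means up to 100 had 1 solution each, as did all 932 dKO means between 100 and 200, against 54.0% of the 991 control means there. Means of random size between 100 and 200 had a solution in 1.90% and 4.90% of cases. Of 768 dKO means between 200 and 300, where that of Lig4 lies, 96.6% had 1 solution. The method was tested on simulated data for means under 100 alone. The dKO means of Rag2, Xrcc4, Lig4 and Nhej1 lie above that range. For log2 values a group mean below 3 reads over the group, 0 included, was set to that floor. Lengths are those of the longest principal transcript in GENCODE vM21, and promoters come from RefSeq (GRCm38.p6), another build than the authors', so only those windows carry coordinates. Python 3.11.15, numpy 2.4.6, pandas 2.3.3 and scipy 1.17.1 were used.

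Members and lists were chosen with earlier results of these data known. Named genes were all members, per list all called genes where 5 or fewer moved in a direction (otherwise 3), the 2 most abundant that did not pass (for marker lists only some are printed), the nearest coding genes and the 3 nearest in level. Alternatives were other thresholds, a fold minimum, a low value filter, 2 scalings, another floor and leaving out libraries. Some genes that the rule names are not reported here, and they stay in the counts of their lists.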

Additional observations from a re-analysis of the deposited data

How the results depend on the processing

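The count of members lower in dKO was 4 at adjusted p under 0.01 and under 0.1 and with the adjustment redone over genes with a mean of at least 10, and 3 with a minimum change of 2-fold; the count higher was 0 under each. In the 4 repair lists together the genes that fell went from 7 to 4 at adjusted p under 0.01, which is fewer by construction. The median log2 change of the lymphoid-specific genes was -2.74 without Rag1, -3.74 without Rag2 and -4.92 without Dntt. Without Rag1 or Rag2 it averages the other Rag gene with Dntt, set at -1.56 by the floor of 3 reads over the group. With a floor of 1 read Dntt was at -3.14, so those medians depend on the floor. The median of the general genes was -0.0921 without Xrcc5, Dclre1c or Xrcc4 and -0.0839 without Prkdc, so its sign is not fixed. Leaving out a dKO library gave log2 changes of -6.76 to -5.50 for Rag1 and -4.13 to -3.67 for Rag2. No library could be left out for Xrcc6, Xrcc5, Prkdc and Dclre1c, or on the control side for most members, because reads per library were not unique, and no p-value could be recomputed for any such setting. No paired analysis was possible because the table gives group means and the recovered libraries carry no replicate number. Depth limits Dntt, at 7 reads, and the dKO side of Rag1, at 93 reads.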
